A study of Mus musculus with 66 samples.

Results

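The 9 genes described here, Stra6, Aldh1a1, Aldh1a2, Aldh1a3, Crabp1, Crabp2, Cyp26b1, Rara and Rarb, were taken from a fixed list of retinoid genes, and each symbol was matched to its Ensembl identifier, 9 of 45706 identifiers in the table. Their expected counts and length-corrected transcript levels (TPM) were read in all 66 libraries of a study of spontaneous Rorb mutant mice. RORB is an orphan nuclear receptor of neurons in cortex, spinal cord and retina, and retinoic acid is one of its reported ligands. Brain hemi-sections and spinal cords came from the same 24 mice (48 libraries, 7.9 to 9.6 weeks old), and cortex, hippocampus and cerebellum from 6 other mice (18 libraries, 7 weeks old).

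The mutants were homozygous and their alleles were spontaneous. The h1 allele, a duplication that takes in the first exon of the Rorb1 isoform and non-coding sequence upstream of it, arose on C57BL/6J. The h2 and h3 alleles, whose causal change is not known, arose on B6(Cg)-Tyr c-2J/J, and h4, a premature stop, on B6.129S7-Il1r1 tm1Imx/J. All 4 were compared with C57BL/6J mice, so that for h2, h3 and h4 the Rorb allele and the colony of origin cannot be told apart. The h5 allele, which removes the start codon of the Rorb1 isoform, arose on DBA/1J and was compared with DBA/1J mice. Each group held 3 mice, except h2, h3 and h4, which held 4. Of these groups, h1 to h4 share the same 3 C57BL/6J mice as controls within a tissue. Animal identifiers of the C57BL/6J mice belong to the series of the h1 mice, while h2, h3 and h4 each have a series of their own.

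Retinoic acid is made from vitamin A in steps. Retinol bound to its carrier protein in blood enters cells through the membrane receptor STRA6, retinol dehydrogenases turn it into retinaldehyde, and the retinaldehyde dehydrogenases ALDH1A1, ALDH1A2 and ALDH1A3 oxidise retinaldehyde to retinoic acid. CRABP1 and CRABP2 bind retinoic acid in the cytosol, CYP26B1 hydroxylates it for removal, and the receptors RARA and RARB, paired with a retinoid X receptor, bind DNA and are switched by it. In the adult nervous system the meninges are a known site of synthesis, and RARB is abundant in the striatum.

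Rarb is the textbook target of this pathway, because its promoter carries a retinoic acid response element, a pair of 6-base words read in the same direction. The promoters of Rarb and of the 2 genes with calls in the mutants, Aldh1a1 and Aldh1a2, are shown for that reason, from 250 bases before to 50 bases after the start of transcription in RefSeq on GRCm38.p6. Capitals mark every match, on either strand, to AGGTCA or to GGGTCA, and likewise to the words AGTTCA and, as a further form, GGTTCA.
Rarb, chr14:16575427-16575726, minus strand: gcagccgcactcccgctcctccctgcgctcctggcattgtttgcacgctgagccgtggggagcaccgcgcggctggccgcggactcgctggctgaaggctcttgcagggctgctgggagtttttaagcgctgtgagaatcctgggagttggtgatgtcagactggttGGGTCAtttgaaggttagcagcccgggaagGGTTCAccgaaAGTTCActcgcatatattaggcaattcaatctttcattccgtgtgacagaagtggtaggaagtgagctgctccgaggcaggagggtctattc
Aldh1a1, chr19:20601718-20602017, plus strand: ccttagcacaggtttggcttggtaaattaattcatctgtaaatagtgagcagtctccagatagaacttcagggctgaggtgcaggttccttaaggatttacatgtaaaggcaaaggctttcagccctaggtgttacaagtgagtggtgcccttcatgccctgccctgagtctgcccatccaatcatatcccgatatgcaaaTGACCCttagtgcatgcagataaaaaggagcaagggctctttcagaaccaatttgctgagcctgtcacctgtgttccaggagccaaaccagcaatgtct
Aldh1a2, chr9:71215539-71215838, plus strand: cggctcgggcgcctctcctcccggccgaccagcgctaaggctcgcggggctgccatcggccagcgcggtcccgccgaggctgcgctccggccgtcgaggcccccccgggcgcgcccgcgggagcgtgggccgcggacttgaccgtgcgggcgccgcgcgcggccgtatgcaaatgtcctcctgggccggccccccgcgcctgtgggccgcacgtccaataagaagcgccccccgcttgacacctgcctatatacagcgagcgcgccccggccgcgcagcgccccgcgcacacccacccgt

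RefSeq entries were found for 7 members, with 14 promoters in all, and none was found for Aldh1a3 and Crabp2. At least 1 of the words lay in 5 of the 14 promoters and in 43.7% of 32851 mouse promoters of the same length. A pair of them in the same direction with 5 bases between lay in 0.0974% of all promoters and, among the members, in that of Rarb (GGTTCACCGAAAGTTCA, first base 53 bases before the start). A spacing of 2 bases (0.268% of promoters) and the word TAGGTCA, which contains AGGTCA and is the form bound by ROR proteins (2.61%), were found in 0 of the 14. The promoter at the first start of Aldh1a1 held none of the words. The second start, shown here, held 1, TGACCC on the plus strand, 49 bases before the start, and the Aldh1a2 promoter held none. These matches describe letters in a window and are not measured sites.

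On GRCm38 the members lie on 7 chromosomes, with Aldh1a2 (chr9:71215789-71296243), Crabp1 (chr9:54764748-54773110) and Stra6 (chr9:58063793-58154004) on the same one. The others are Crabp2 (chr3:87948693-87953372), Cyp26b1 (chr6:84571414-84593908), Aldh1a3 (chr7:66390892-66427477), Rara (chr11:98927800-98974942), Rarb (chr14:16430839-17082331) and Aldh1a1 (chr19:20492583-20643463). Expression was counted over the exons of each whole gene.

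Total counts ranged from 32889755 to 59120536 per library (median 42391893). Tissue labels were checked with marker lists in the DBA/1J mice. Summed TPM of 6 spinal cord markers was 249.9 to 272 in cord and at most 0.09 in cortex, hippocampus and cerebellum, 7 cerebellar markers summed to 4974 to 5132 in cerebellum and to 126 to 230 in cortex and hippocampus, and 6 hippocampal markers to 263 to 272 in hippocampus. A list of 5 cortical markers stood at 251 to 315 in cortex and at 230 to 245 in hippocampus, so it barely parts them. In 3 libraries, those of h5 replicate 3 in cortex, hippocampus and cerebellum, sex-linked transcripts went against the labelled sex, and the labels were kept. The h5 spinal cord of replicate 3 stood apart in markers of the meninges and of nerve roots, as described with its values below. In bulk tissue fewer cells of a type and less RNA per cell cannot be told apart.

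Which tissues and strains hold each gene was asked first, in the 7 control groups. Levels are in TPM, which corrects for transcript length, as mean ± SD of 3 mice. Aldh1a1 was the most abundant member in every control group and Aldh1a3 lay at or under 1.26 TPM. Of 54 neighbouring pairs in the members' orders of control groups, 32 overlapped between mice, so most of the orders hold only in their broad steps.

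Stra6 was highest in hippocampus (8.39 ± 1.87 TPM), followed by cerebellum (5.43 ± 0.295), C57BL/6J brain (3.49 ± 0.0709) and DBA/1J brain (2.46 ± 0.723), which overlapped cortex (2.13 ± 0.512), and it was low in spinal cord, at 0.827 ± 0.166 in C57BL/6J and 0.327 ± 0.289 in DBA/1J. Aldh1a1 was highest in C57BL/6J cord (160.1 ± 7.65 TPM). It stood at 94.3 ± 6.34 in C57BL/6J brain, overlapping cerebellum at 88.7 ± 3.71, then at 79.2 ± 1.45 in DBA/1J cord, 51.9 ± 3.97 in DBA/1J brain, and 33.2 ± 6.95 and 25.5 ± 3.66 in cortex and hippocampus, which overlapped. The other synthetic enzymes were distributed differently. Aldh1a2 lay between 7.55 and 11.8 TPM in all brain tissues, with cerebellum and DBA/1J brain (11.4 ± 1.21) overlapping at the top, and at 2.38 ± 0.999 and 1.73 ± 0.287 in DBA/1J and C57BL/6J cord. Aldh1a3 was highest in C57BL/6J brain (1.26 ± 0.233) and lowest in DBA/1J brain (0.213 ± 0.0702), with overlap between most neighbours in between.

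The genes of the 2 binding proteins differed in where they were highest. Crabp1 was at 15.6 ± 1.05 TPM in C57BL/6J cord and 14.3 ± 0.783 in DBA/1J cord, which overlapped, at 3.24 ± 0.735 and 3.11 ± 0.870 in the 2 brains, and at 0.12 ± 0.0436 in cerebellum. In cerebellum its level rested on 1, 1 and 2 counts. Crabp2 stood at 4.21 to 7.32 TPM across the brain tissues, all neighbours overlapping, and at 0.51 ± 0.56 and 0.303 ± 0.211 in DBA/1J and C57BL/6J cord. Cyp26b1 was highest in cerebellum (11.7 ± 1.19), above hippocampus (6.75 ± 0.761) without overlap, and near 1 TPM in cord (1.35 ± 0.248 and 1.07 ± 0.273). Rara was highest in cerebellum (11.5 ± 0.549), followed by hippocampus (9.44 ± 0.525), cortex (7.25 ± 0.922) and cord (3.84 ± 0.156 in C57BL/6J), and Rarb was highest in the 2 brain hemi-sections (9.96 ± 1.21 and 9.41 ± 0.0862), which overlapped cortex, and lowest in hippocampus (3.40 ± 0.643). The plot of levels by library shows these patterns for all 20 groups.

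**Figure D1:**
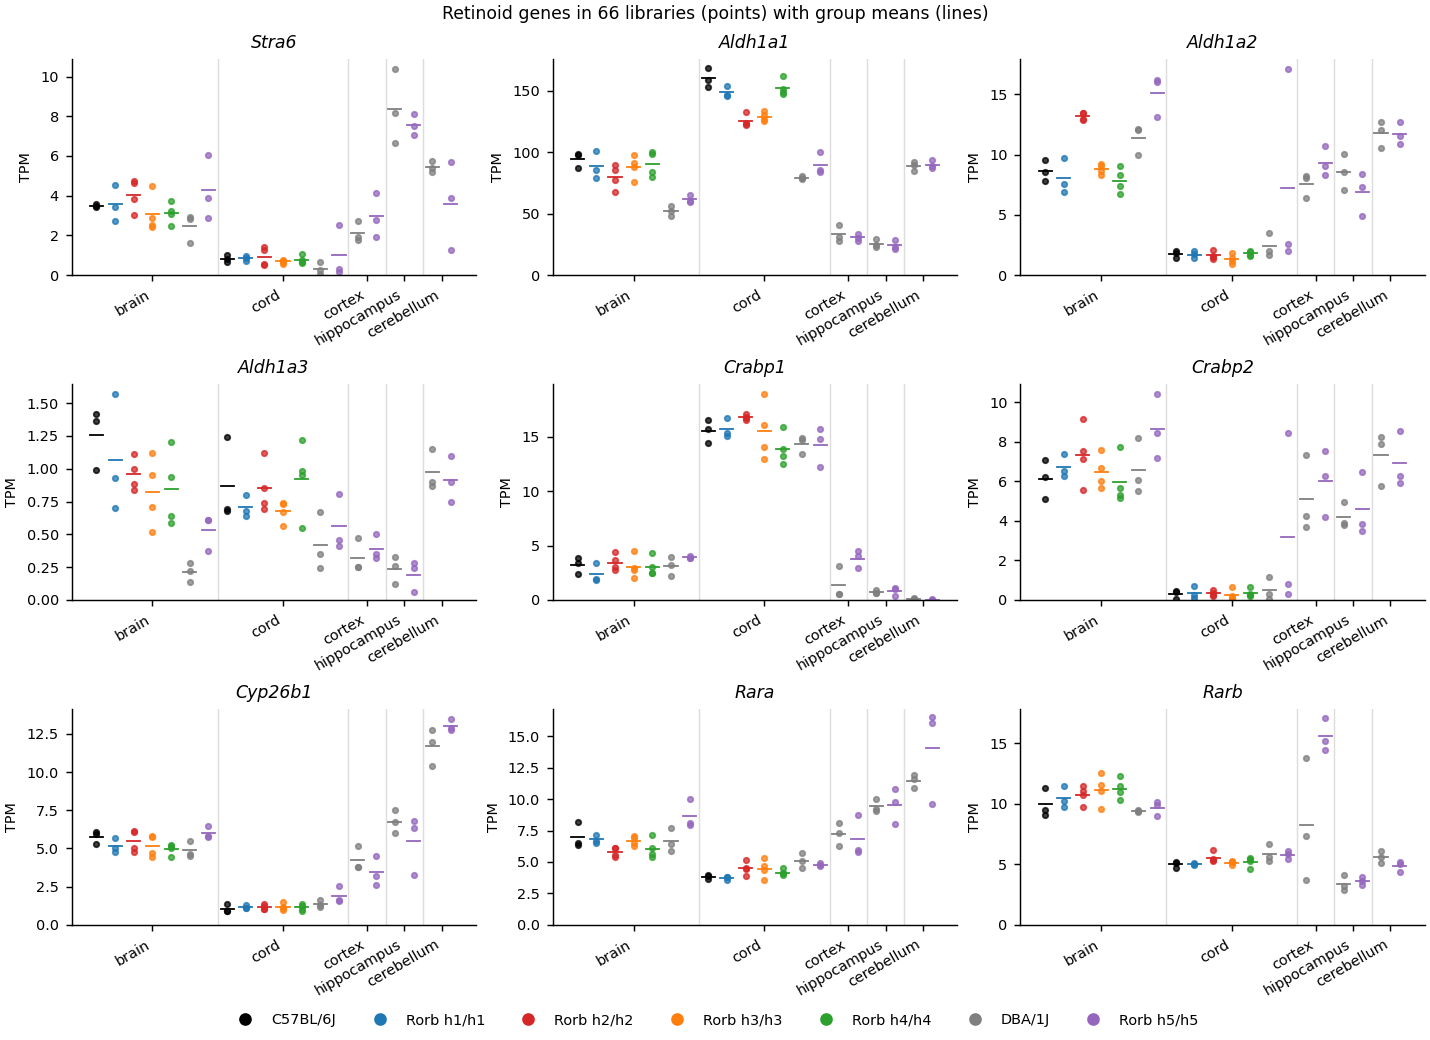
TPM of each retinoid gene in the 66 libraries, by tissue along the x axis and coloured by genotype, with a line at each group mean. Crabp1 stands highest in spinal cord, as Aldh1a1 does in C57BL/6J, Aldh1a2, Crabp2, Cyp26b1 and Stra6 stand lowest there among the control groups, and 1 h5 cord is high for Aldh1a2 (17.1 TPM) and Crabp2 (8.43 TPM).

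Between tissues of the same mice, genes were tested on rounded expected counts with the quasi-likelihood test of edgeR, p-values were adjusted by the Benjamini-Hochberg method over all genes tested, and a gene was called at an adjusted p under 0.05. The main fits held no term for the mouse, so they treated the tissues of a mouse as independent. From here on, values are counts scaled to the library total (CPM) unless TPM is named, and log2 fold changes carry their standard error (SE). Spinal cord against brain in C57BL/6J called all 9 members, beside 56.9% of all genes tested. In DBA/1J it called 8 of 9, beside 50.8% of all genes. Crabp1 and Aldh1a1 were higher in cord in both strains, by 2.29 (SE 0.17) and 0.79 (SE 0.06) in C57BL/6J and by 2.15 (SE 0.23) and 0.58 (SE 0.06) in DBA/1J. Crabp1, for example, was at 4.87, 4.50 and 4.94 CPM in the C57BL/6J cords and at 0.744, 1.09 and 1.03 in the brains of the same mice, so that the groups lay far apart. Glial and root markers were higher in C57BL/6J cord too, with sums of 20212 to 22028 against 5709 to 6551 TPM for oligodendrocytes, 2343 to 2463 against 1406 to 1447 for astrocytes and 129.9 to 164 against 59.46 to 64.7 for Schwann cells and dorsal roots, and their part was not tested.

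The other members were lower in cord, except Aldh1a3 in DBA/1J. Choroid plexus and meningeal markers were lower there too, with sums in C57BL/6J of 11.8 to 14.4 TPM in cord against 632 to 1001 in brain and of 70.5 to 79.7 against 198 to 247, and their part was not tested. For Crabp2 the difference was -4.32 (SE 0.40) in C57BL/6J and -3.67 (SE 0.52) in DBA/1J, for Cyp26b1 -2.42 (SE 0.14) and -1.88 (SE 0.14), for Aldh1a2 -2.28 (SE 0.13) and -2.30 (SE 0.22), and for Stra6 -1.96 (SE 0.18) and -2.79 (SE 0.51). Both receptors were lower too, Rarb by -0.97 and -0.72 and Rara by -0.81 and -0.47. In DBA/1J the Rarb call was lost in a single fit of all groups (adjusted p 0.0566) and that of Rara with limma on log2 TPM (0.0841). Adjusted p-values of these calls ranged from 4.77e-09 to 0.00795. Aldh1a3 was called in C57BL/6J only, with -0.71 (SE 0.23, adjusted p 0.0193) in C57BL/6J and 0.20 (SE 0.46, adjusted p 0.738) in DBA/1J. The C57BL/6J call for Aldh1a3 was lost without cord replicate 1 (adjusted p 0.0618) or 3 (0.0700) and with limma on log2 TPM (0.135). Whether a tissue difference itself differed between strains was tested as an interaction, which called 0 of the 9 members (0.321% of all genes) in edgeR, also with the animal as a block (0.218%). Without the block 3 of them, Rara, Aldh1a1 and Cyp26b1, had an unadjusted p under 0.05, beside 9.8% of all genes.

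Among the dissected DBA/1J regions, cerebellum against cortex called 6 of 8 tested members, all higher in cerebellum, beside 58.1% of all genes. These were Aldh1a3 (1.61, SE 0.31), Cyp26b1 (1.22, SE 0.13), Aldh1a1 (1.17, SE 0.15), Stra6 (1.01, SE 0.20), Aldh1a2 (0.40, SE 0.15) and Rara (0.34, SE 0.10). The Aldh1a2 call (adjusted p 0.0426) was lost in 4 of 6 fits that left out 1 library, namely cortex replicate 2 (0.148) or 3 (0.0514) and cerebellum replicate 1 (0.101) or 3 (0.144), and in a single fit of all groups (0.0799), and that of Rara without cerebellum replicate 1 (0.0515). Summed markers of meninges (281 to 315 against 161 to 197 TPM), ependyma (37.4 to 48.6 against 18.5 to 21.2) and choroid plexus (2643 to 3820 against 25.7, 77.6 and 904) were also higher in cerebellum, and their part was not tested. Rarb was not called (-0.78, SE 0.36, adjusted p 0.0881). Over the 6 fits without 1 library it ran from -1.12 to -0.23 (adjusted p 0.00243 to 0.402), and it was called only without cortex replicate 1. It was also called by edgeR without the count filter (0.0396) and in a single fit of all groups (0.0331). Hippocampus against cerebellum called 6 of 8 (64% of all genes). In hippocampus Stra6 was higher (0.80, SE 0.14), at 10.4, 8.42 and 11.1 CPM against 6.53, 6.35 and 4.98, and Aldh1a3 (-1.94), Aldh1a1 (-1.64), Crabp2 (-0.66), Cyp26b1 (-0.63) and Rarb (-0.57) were lower. The Crabp2 call (adjusted p 0.0203) was lost without hippocampus replicate 1 (0.0580) or 3 (0.0721) and without cerebellum replicate 2 (0.0688) or 3 (0.0724). In a single fit of all groups both the Crabp2 (0.135) and the Rarb (-0.56, 0.124) call were lost. Aldh1a2 (-0.30, adjusted p 0.0742) was called without hippocampus replicate 2 (0.0162) or cerebellum replicate 2 (0.0415), and with limma on log2 TPM (-0.45, 0.0222). Rara, higher in cerebellum by TPM, was not called by edgeR. Over the 6 edgeR fits without 1 library it ran from -0.10 to -0.02 (adjusted p 0.402 to 0.874). With limma on log2 TPM Rara was called (-0.27, 0.0408).

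Hippocampus against cortex called 3 of 8, beside 20.6% of all genes. Stra6 was higher in hippocampus (1.83, SE 0.19, adjusted p 0.000329), from 2.82, 3.28 and 2.04 CPM in cortex, and so was Cyp26b1 (0.61, SE 0.14, adjusted p 0.0165). Choroid plexus markers moved in the same direction, with a summed TPM of 1540 to 6394 in hippocampus, 26 to 904 in cortex and 2643 to 3820 in cerebellum. Meningeal (335 to 461 against 161 to 197) and ependymal sums (45.3 to 47.6 against 18.5 to 21.2) were higher in hippocampus than in cortex too. The part of these lists in the differences was not tested. Rarb was lower in hippocampus (-1.32, SE 0.39, adjusted p 0.0441), at 4.91, 5.97 and 4.13 CPM against 5.95, 10.6 and 19.7 in cortex, where the groups overlap. By DESeq2 the adjusted p of Rarb was 0.0519 and by limma 0.123. With the mouse as a block it was 0.0555, while Aldh1a1, lower by -0.43, was called (adjusted p 0.0138). A single fit of all groups also called Aldh1a1 (-0.45, 0.0263), and Rara (0.30, 0.0397). Over the fits without 1 library Aldh1a1 ran from -0.59 to -0.23 (adjusted p 0.0308 to 0.314). Of the 6 fits without 1 library, 5 lost the Rarb call (adjusted p 0.0679 to 0.162), all but the one without cortex replicate 1, and 3 lost that of Cyp26b1, those without cortex replicate 2 (0.0751) and hippocampus replicate 1 (0.0776) or 3 (0.0577), while Aldh1a1 was called without cortex replicate 3 (-0.59, 0.0308). The 3 cortices differed in striatal tissue, with a summed TPM of 8 striatal markers of 117, 410 and 756, in the same order as Rarb. Crabp1 did not pass the count filter in these 3 comparisons, and at 0.161, 0.160 and 0.878 CPM in cortex, 0.266, 0.184 and 0.191 in hippocampus and 0.0284, 0.0230 and 0.0472 in cerebellum it was compared by an exact permutation test, two-sided, whose smallest p with 3 against 3 mice is 0.1. It gave 1 for hippocampus against cortex and 0.1 for each comparison with cerebellum.

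The strains were compared within brain and within cord. DBA/1J brains differed from C57BL/6J brains in 3 of 9 members (11.2% of all genes), and the cords in 3 of 8 (21.3%). Aldh1a1 was lower in both DBA/1J tissues. In cord it stood at 76.5, 76.7 and 79.5 CPM against 163, 152 and 166 (-1.02, SE 0.04, adjusted p 5.22e-10), and in brain at 51.9, 46.0 and 54.4 against 96.6, 92.8 and 85.0 (-0.81, SE 0.08, adjusted p 0.000143). No mouse of 1 strain reached the range of the other, and neither call was lost without any 1 library. Marker sums of 6 lists parted the brains without overlap, all lower in DBA/1J. They were 4689 to 5228 against 5709 to 6551 TPM for oligodendrocytes, 54.5 to 61.2 against 65.3 to 73.03 for their precursors, 1254 to 1318 against 1406 to 1447 for astrocytes, 291 to 315 against 323 to 368 for endothelium, 55.9 to 59.45 against 59.46 to 64.7 for Schwann cells and dorsal roots and 153, 741 and 759 against 760.2 to 1039 for cerebellum. The DBA/1J brain at 153, replicate 1, stood apart, and without it Aldh1a1 was at -0.81 (adjusted p 0.000267 by edgeR). In cord the oligodendrocyte, astrocyte and endothelial sums overlapped between the strains, and 6 lists parted them. Those of oligodendrocyte precursors (69.3 to 79.9 against 85.6 to 99.2), ependyma (29.7 to 35.5 against 40.8 to 44.2), striatum (82.4 to 94.7 against 98.7 to 110.2), hippocampus (78.6 to 82.9 against 85.6 to 91.6) and cerebellum (45.8 to 52.5 against 54.8 to 58.9) were lower in DBA/1J, and that of cortex was higher (28.1 to 32.4 against 23.3 to 26.1). The part of these lists in the strain differences was not tested.

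Aldh1a3 was lower in DBA/1J as well, at 0.311, 0.187 and 0.478 CPM against 1.62, 1.60 and 1.41 in brain (-2.20, SE 0.33, adjusted p 0.00233). In cord the difference was -1.30 (SE 0.35, adjusted p 0.0172), which was lost without C57BL/6J replicate 2 (adjusted p 0.0842) or DBA/1J replicate 1 (0.0704). Aldh1a2 was higher in DBA/1J brain (12.5 ± 1.52 against 9.36 ± 0.733 CPM, SD, n = 3 each, 0.46, SE 0.10, adjusted p 0.0181 by edgeR) and Rara in DBA/1J cord (6.91 ± 0.747 against 5.51 ± 0.0421, 0.34, SE 0.10, adjusted p 0.0248 by edgeR). Each of these 2 calls was lost in 5 of the 6 fits that left out 1 library, with adjusted p-values up to 0.0651 and 0.0800, and each was kept only without DBA/1J replicate 2. With limma on log2 TPM the adjusted p was 0.115 for Aldh1a2 in brain, 0.111 for Rara in cord and 0.148 for Aldh1a3 in cord, and with DESeq2 it was 0.0674 for Rara. Stra6 in DBA/1J cord, at 0.0936, 0.358 and 0.909 CPM against 1.20, 0.910 and 1.44, was not called by edgeR (-1.37, SE 0.50, adjusted p 0.0719) and was called by DESeq2 (0.0454). Over the 6 edgeR fits without 1 library its log2 fold change ran from -2.36 to -0.87 (adjusted p 0.00252 to 0.179), and it was called in 1 of them, that without DBA/1J replicate 3.

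**Figure D2:**
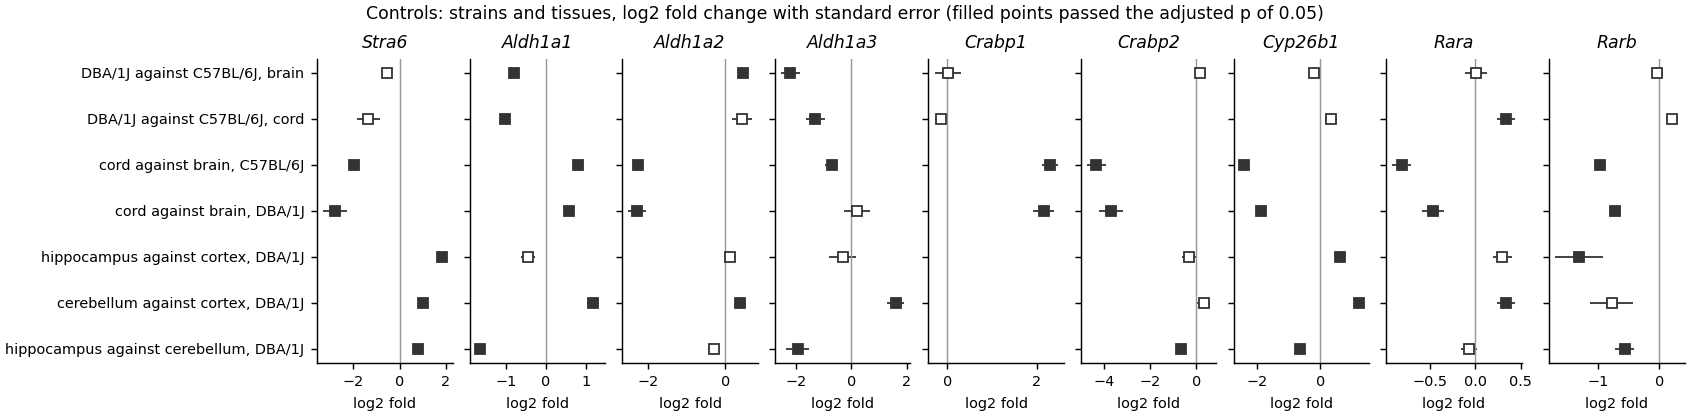
Log2 fold changes (x axes) with SE between control groups for each member, with filled squares where the adjusted p was under 0.05. Aldh1a1 is lower in DBA/1J than in C57BL/6J in brain (-0.81) and cord (-1.02), and cord against brain moves Crabp1 and Aldh1a1 up and Crabp2, Cyp26b1, Aldh1a2 and Stra6 down in both strains.

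Aldh1a1 has its start 1.38 Mb above the highest coordinate of Rorb (chr19:18930609-19111196). The study places Rorb on the negative strand, so Aldh1a1 lies on the side where Rorb transcription starts. Counts of Aldh1a1 may share reads with its paralog Aldh1a7 (0.259 to 2.41 CPM over all libraries). Within 2 Mb of its start 24 genes were listed. Between the strains 4 of 16 tested were called in brain (11.2% of all genes) and 6 of 17 in cord (21.3%), Aldh1a1 included. The others, all lower in DBA/1J, were Carnmt1, Nmrk1 and D030056L22Rik in both tissues, and Trpm3 and Gda in cord. Carnmt1, which encodes carnosine N-methyltransferase, had the lowest adjusted p among them, at 4.62 ± 0.267 against 10.8 ± 0.297 CPM in cord (-1.21, SE 0.09, n = 3 each, edgeR adjusted p 8.89e-07). Nmrk1 in cord differed more in size (-1.36, SE 0.14, edgeR adjusted p 1.43e-05). Reads of both strains were aligned to the C57BL/6J reference, and whether that moved these counts was not tested.

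Each mutant was then compared with its control, the main question of the study. Of 117 member comparisons 111 passed the count filter, and 3 were called, all in h2 or h3 mice. Rorb itself was checked first. It was lower in h4 (-2.10 in brain and -2.21 in cord), in h2 (-0.91 and -0.72) and in h1 cord (-0.28), was at -0.60 in h1 brain with an adjusted p of 0.0838, was near its control in h3 (-0.05 and -0.02), and stood above its control without a call in h5 (0.24 to 0.72 over 5 tissues).

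In the brain, edgeR called 0 of 9 members in h1 (0% of all genes), 1 of 9 in h2 (0.136%), 0 of 9 in h3 (0.164%), 0 of 9 in h4 (0.703%) and 0 of 9 in h5 (0%). At an unadjusted p under 0.05 there were 0, 3, 1, 2 and 5 members, beside 4.23%, 7.45%, 10.4%, 13.2% and 5.8% of all genes. In the cord it called 0 of 8 in h1 (0.289%), 1 of 8 in h2 (2.09%), 1 of 8 in h3 (1.01%), 0 of 8 in h4 (1.75%) and 0 of 9 in h5 (0.00581%), with 0, 1, 1, 0 and 2 at the unadjusted level (11.3%, 15.6%, 13.6%, 14% and 8.9% of all genes). For h5 regions it called 0 of 9 in cortex (0%), 0 of 8 in hippocampus (0.0118%) and 0 of 8 in cerebellum (0.012%), with 2, 0 and 1 at the unadjusted level (6.42%, 4.22% and 5.62% of all genes). DESeq2 called the same 3 members in the same comparisons and no other. The members' median log2 fold change lay between -0.14 and 0.27 in 12 comparisons and was 0.49 in h5 cord, where it was -0.04 without replicate 3, while that of all genes was at most 0.0050 from 0.

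Aldh1a2 rose in the brain of h2 mice. It stood at 14.8, 13.7, 14.2 and 14.7 CPM in h2 and at 8.64, 10.1 and 9.33 in C57BL/6J (14.3 ± 0.474, n = 4, against 9.36 ± 0.733, n = 3). All 4 h2 brains lay above all 3 controls, by 0.64 on the log2 scale (SE 0.07, edgeR adjusted p 0.00643). The other mutants held 7.63, 8.27 and 10.6 CPM in h1, 10.02, 9.55, 8.87 and 10.3 in h3 and 7.98, 9.72, 7.49 and 9.05 in h4, all below the h2 values and overlapping the controls. Direct contrasts, chosen after these values were seen, put h2 above h1 by 0.71 (adjusted p 0.0447, 0.017% of all genes called), above h3 by 0.60 (0.00973, 0.063%) and above h4 by 0.73 (0.0019, 0.0805%).

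The call was lost without C57BL/6J replicate 1 (0.61, adjusted p 0.0832) and with limma on log2 TPM (0.59, adjusted p 0.0949). It was also lost with a replicate block in edgeR (0.63, adjusted p 0.214), although these numbers do not pair the mice. Markers of meninges and perivascular fibroblasts, cells in which Aldh1a2 is known to be expressed, lay somewhat higher in h2 brains as well. Of 17 such genes 13 had a positive log2 fold change (median 0.21), 1 was called, the GABA transporter Slc6a13, no defining marker was at 0, and the list summed to 278, 263, 244 and 245 TPM in h2 and 198, 247 and 242 in C57BL/6J, ranges that overlap. The astrocyte sum was lower in h2 brains without overlap (1324 to 1396 against 1406 to 1447 TPM). The part of these lists in the Aldh1a2 difference was not tested. In h2 cord Aldh1a2 was at 2.29, 1.64, 1.49 and 1.83 CPM against 2.25, 1.56 and 2.01 (-0.10, SE 0.18), and the difference between the cord and brain effects was -0.74 (SE 0.17), which was not called (adjusted p 0.485).

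Aldh1a1 fell in the spinal cord of h2 and h3 mice. The controls held 163, 152 and 166 CPM. The h2 cords held 119, 130, 123 and 125 (124 ± 4.48 against 160.1 ± 7.28) and the h3 cords 128, 132, 125 and 127 (128 ± 3.14). Every h2 and h3 cord lay below every control, with a log2 fold change of -0.36 (SE 0.03, adjusted p 1.31e-05 by edgeR) in h2 and -0.29 (SE 0.04, adjusted p 0.00353) in h3.

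The h1 cords, at 152, 146 and 145 CPM (-0.03, SE 0.04, adjusted p 0.839), and the h4 cords, at 153, 158, 147 and 150 (-0.05, SE 0.03, adjusted p 0.58), overlapped the controls. Direct contrasts, added after these values were seen, placed h2 below h1 by -0.33 (adjusted p 6.39e-05, 0.921% of all genes called) and below h4 by -0.32 (0.000139, 0.33%), and h3 below h1 by -0.26 (0.00897, 0.519%) and below h4 by -0.25 (0.00356, 1.28%). Between h2 and h3, which arose on the same background strain, the difference was -0.07 (SE 0.03) and was not called (adjusted p 0.363, 0.763% of all genes). Neither call was lost when 1 library was left out, and with limma on log2 TPM the adjusted p was 0.0248 in h2 and 0.0942 in h3.

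**Figure D3:**
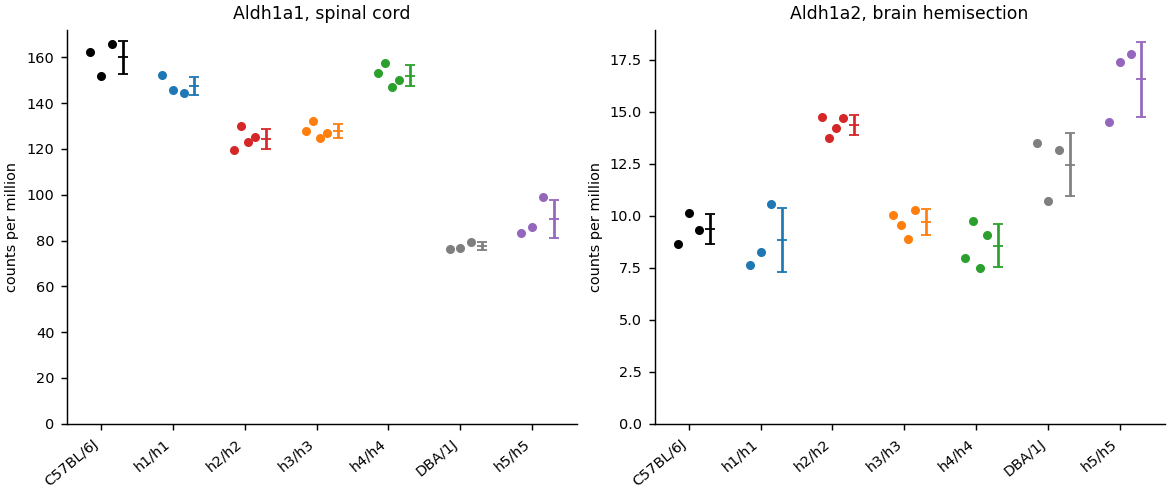
CPM (y axes) of Aldh1a1 in spinal cord and Aldh1a2 in brain hemi-sections by genotype, with mean and SD beside the points of 3 or 4 mice. The h2 and h3 cords lie between 119 and 132 for Aldh1a1, below the C57BL/6J cords (152 to 166), and the h2 brains lie between 13.7 and 14.8 for Aldh1a2, above the C57BL/6J brains (8.64 to 10.1).

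Of 18 tested genes within 2 Mb of the start of Aldh1a1, h2 cord called Aldh1a1, Rorb and the ion channel gene Trpm3 (161 ± 12.6 against 190.3 ± 7.55 CPM, -0.24, SE 0.04, adjusted p 0.00544 by edgeR), and h3 cord called Aldh1a1 only. Marker sums overlapped the controls for some lists and parted from them for others. Summed TPM of 10 endothelial markers was 307 to 349 in h2 and 289 to 361 in h3 against 328 to 353 in C57BL/6J cord, that of 6 astrocyte markers 2263 to 2543 and 2012 to 2333 against 2343 to 2463, and that of 6 oligodendrocyte markers 19517 to 22491 and 15758 to 20737 against 20212 to 22028. Microglial sums lay above the controls, at 227 to 244 in h2 and 228 to 259.7 in h3 against 209.7 to 222. Neuronal sums were lower in h2 (2591 to 2711 against 2802 to 2906), and so they were in h1 (2517 to 2621) and h4 (2582 to 2764), where Aldh1a1 overlapped the controls. Those of oligodendrocyte precursors were lower in h3 (62.0 to 81.2 against 85.6 to 99.2) and in h1 (77.4 to 82.3). Ependymal (45.4 to 48.4 against 40.8 to 44.2) and cortical (26.4 to 30.1 against 23.3 to 26.1) sums were higher in h2. Schwann cell and dorsal root sums were lower in h3 (108 to 125 against 129.9 to 164) and h1 (116 to 126), and hippocampal sums in h3 (73.1 to 78.7 against 85.6 to 91.6), h1 (77.1 to 81.0) and h4 (74.2 to 84.1). The h3 astrocyte sums lay below the controls, and 1 of 6 astrocyte and 1 of 6 oligodendrocyte markers had a positive log2 fold change there (medians -0.09 and -0.15). Called markers were Slc1a2 and Aqp4 (lower) and Opalin (higher) in h2, and Ly6c1 and Olig2, lower in both. Their part in the Aldh1a1 difference was not tested. In the brain of the same mice Aldh1a1 was at 75.6, 64.4, 88.0 and 83.1 CPM in h2 (-0.21, SE 0.09, adjusted p 0.632) and at 74.7, 86.6, 93.2 and 91.4 in h3 (-0.08, SE 0.08) against 96.6, 92.8 and 85.0 in C57BL/6J.

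For Rara the h2 values lay on opposite sides of the controls in the 2 tissues. They were 7.58, 8.01, 7.88 and 8.35 CPM in brain against 8.83, 10.9 and 8.93 (-0.24, SE 0.09, adjusted p 0.566), and 6.60, 6.02, 7.29 and 5.62 in cord against 5.48, 5.55 and 5.49 (0.21, SE 0.11, adjusted p 0.347). Tested as an interaction, the difference between cord and brain was 0.45 (SE 0.14), with an unadjusted p of 0.00548 and an adjusted p of 0.757. For none of the 5 mutants did this test call a member in edgeR, with or without the animal as a block. Beside this it called 0% of all genes in h1, h2, h3 and h5 in both fits, and 0.0054% in h4 (0.0108% with the block). At the unadjusted level it marked 0 members in h1, Aldh1a2 and Rara in h2, Rara and Aldh1a1 in h3, and Rara in h4 and h5, beside 3.75%, 5.49%, 4.96%, 9.13% and 4.06% of all genes.

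Of the other members in h1 to h4, Aldh1a3 was below every control brain in h2 (-0.25), h3 (-0.58) and h4 (-0.43), with adjusted p-values of 0.846, 0.418 and 0.405. Cyp26b1 in h4 brain (12.4, 12.5, 12.4 and 10.8 CPM against 12.8, 14.0 and 14.7) was at -0.17 (SE 0.07, adjusted p 0.353), and Rarb there at 0.22 (SE 0.09, adjusted p 0.33). Stra6, Crabp1 and Rarb in cord lay between -0.26 and 0.14 in all 4 mutants. Crabp2 did not pass the count filter in these cords, where it rested on 1 to 15 counts, and the exact permutation test, two-sided, gave 0.9, 0.743, 0.743 and 0.657 for h1 to h4.

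**Figure D4:**
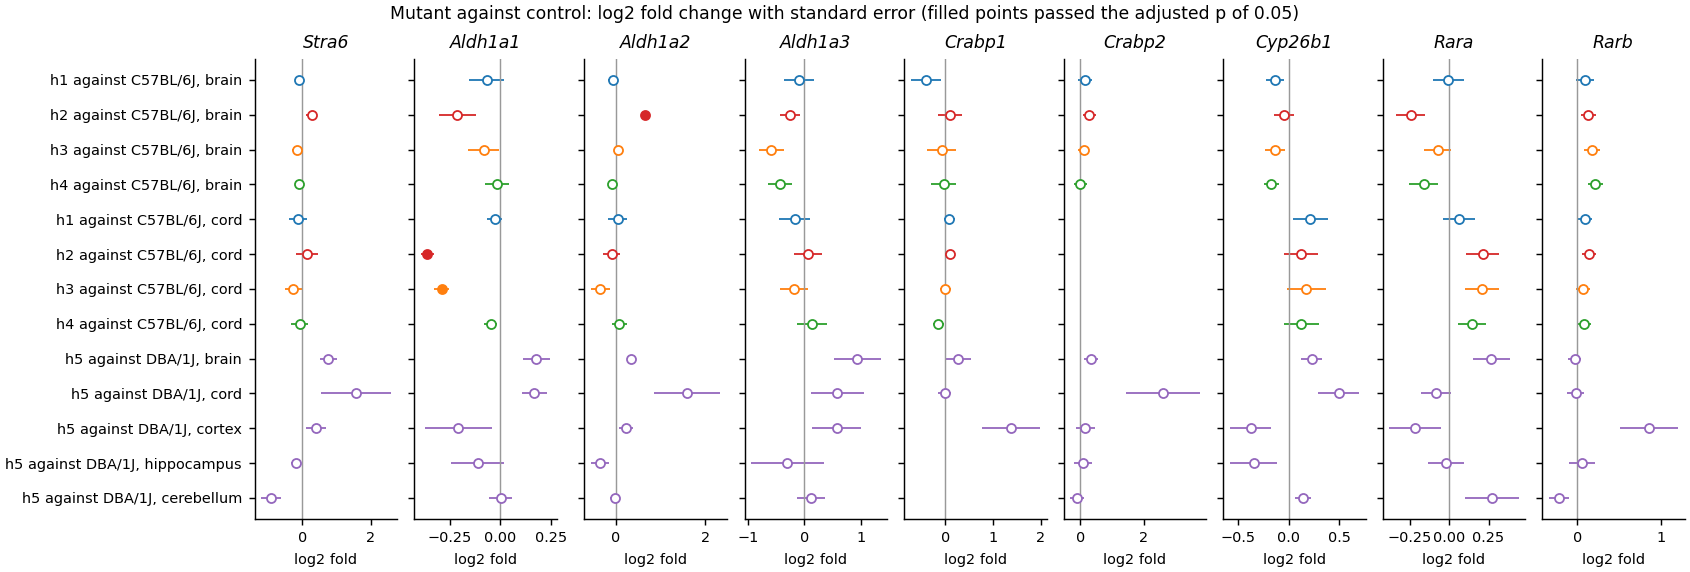
Log2 fold change (x axes) with SE of each member in the 13 comparisons of a mutant with its control, filled where the adjusted p was under 0.05. The 3 filled points are Aldh1a2 in h2 brain (0.64) and Aldh1a1 in h2 (-0.36) and h3 (-0.29) cord, and the widest bars belong to h5 cord, where Crabp2 is at 2.58.

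In h5 mice no member was called, and marker lists of neighbouring tissues moved with several members. In h5 brain 8 of 9 members had a positive log2 fold change (median 0.27). Aldh1a2 was at 14.5, 17.4 and 17.8 CPM against 13.5, 10.7 and 13.2 in DBA/1J (0.34, SE 0.10, adjusted p 0.635), and Aldh1a1 at 59.0, 58.2 and 64.0 against 51.9, 46.0 and 54.4 (0.18, SE 0.07, adjusted p 0.766). Cyp26b1 and Rara also lay above all controls (0.23 and 0.27), and Stra6 was at 0.76 (SE 0.26, adjusted p 0.692). Aldh1a3 was at 0.469, 0.772 and 0.731 CPM against 0.311, 0.187 and 0.478, groups that overlap (0.94, SE 0.41, adjusted p 0.851). Markers of ependyma summed to 39.6 to 43.6 TPM in h5 and 26.1 to 33.2 in DBA/1J brain, those of meninges to 240.2 to 284 and 204 to 248, and those of cerebellum to 791 to 921 and 153, 741 and 759, and their part was not tested. Without the DBA/1J brain with the lowest cerebellar sum, replicate 1, no member was called either, Crabp1 went from 0.27 to 0.49 and Crabp2 from 0.34 to 0.23, and Aldh1a2 was at 0.38 (adjusted p 0.609), Aldh1a1 at 0.18 and Stra6 at 0.89. Other omissions moved these 2 further. Crabp1 was at 0.06 without DBA/1J replicate 2, and Crabp2 at 0.15 without h5 replicate 1 and 0.53 without DBA/1J replicate 3.

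In h5 spinal cord the values of several members moved most with 1 library. Replicate 3 held 17.1 TPM of Aldh1a2, 8.43 of Crabp2 and 2.54 of Stra6, while the other 5 cords of DBA/1J background held 1.66 to 3.52, 0.07 to 1.14 and 0.07 to 0.64. It exceeded these 5 in 18.7% of 17210 genes tested (6.72% to 32.2% for each of the other cords), in 7 of the 9 members and in 17 of 17 meningeal and fibroblast markers, with a sum of 545 TPM against 71.8 to 109. Of 12 choroid plexus markers 5 lay above the other 5 cords in it (Kl, F5, Prlr, Kcnj13 and Sostdc1), Otx2 and Kcne2 were at 0, and the list summed to 18.0 TPM. The choroid plexus sum was 8.55 to 12.03 in the DBA/1J cords. The sum of 5 Schwann cell and dorsal root markers was 1190 TPM in this library, from 122 to 137 in DBA/1J and 130.4 and 205 in the other h5 cords. Endothelial markers also stood above the 5 other cords in 5 of 10 cases, and the part of these lists in the member values was not tested. With all 3 mice the log2 fold changes were 1.59 (SE 0.74) for Aldh1a2, 2.58 (SE 1.16) for Crabp2 and 1.56 (SE 1.01) for Stra6, and without this library they were -0.07, 0.14 and -0.58. Cyp26b1 went from 0.49 to 0.24. The interaction for Rara in h5, the single one under an unadjusted p of 0.05, was no longer so without it. When DBA/1J replicate 3 was left out in its place, Aldh1a2 was at 1.94, Crabp2 at 3.86 and Stra6 at 2.55, and no member was called.

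In h5 cortex Rarb stood at 20.6, 25.1 and 21.7 CPM against 5.95, 10.6 and 19.7 in DBA/1J (0.86, SE 0.35, adjusted p 0.764) and Crabp1 at 1.12, 1.24 and 0.818 against 0.161, 0.160 and 0.878 (1.38, SE 0.60, adjusted p 0.764). All 8 striatal markers had a positive log2 fold change there (median 0.92), with sums of 755 to 825 TPM in h5 and 117, 410 and 756 in DBA/1J, so the DBA/1J cortex with the most striatal RNA also had the most Rarb and Crabp1. Without that library, DBA/1J replicate 3, both were called (Rarb 1.42, adjusted p 0.0184, Crabp1 2.68, adjusted p 0.0220). Without DBA/1J replicate 1, the cortex with the lowest striatal sum, they were at 0.52 (0.816) and 0.98 (0.866). Sums of meningeal (221 to 235 against 161 to 197 TPM) and ependymal markers (25.3 to 26.2 against 18.5 to 21.2) lay above all DBA/1J cortices in h5, while the striatal sums overlapped. The part of these tissues was not tested.

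In h5 cerebellum Stra6 was at 4.35, 3.61 and 1.54 CPM against 6.53, 6.35 and 4.98 in DBA/1J (-0.90, SE 0.29, adjusted p 0.817), all h5 values below all controls. The 12 choroid plexus markers were all lower (median -1.50), with sums of 1398, 2098 and 24.4 TPM against 3640, 3820 and 2643, and 3 of them, Kcne2, Sostdc1 and Tmem72, were at 0 in the lowest. Without that library, h5 replicate 3, Stra6 was at -0.58 and Rara went from 0.27 to 0.48 (adjusted p 0.15). Without h5 replicate 1 or 2 Rara was at 0.15 or 0.16. In hippocampus the h5 members lay between -0.35 (Aldh1a2) and 0.09 (Crabp2), with Cyp26b1 at -0.34. Replicate 2 of h5 held 248 TPM of choroid plexus markers against 1540 to 6394 in the other 5 hippocampi, and without it Cyp26b1 was at -0.09, Aldh1a2 at -0.54 and Crabp2 at -0.26. Without h5 replicate 1 Aldh1a2 was at -0.17. Leaving out the 3 libraries with mismatched sex brought no call, with the lowest adjusted p of a member at 0.8 in cortex, 0.984 in hippocampus and 0.15 in cerebellum.

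**Figure D5:**
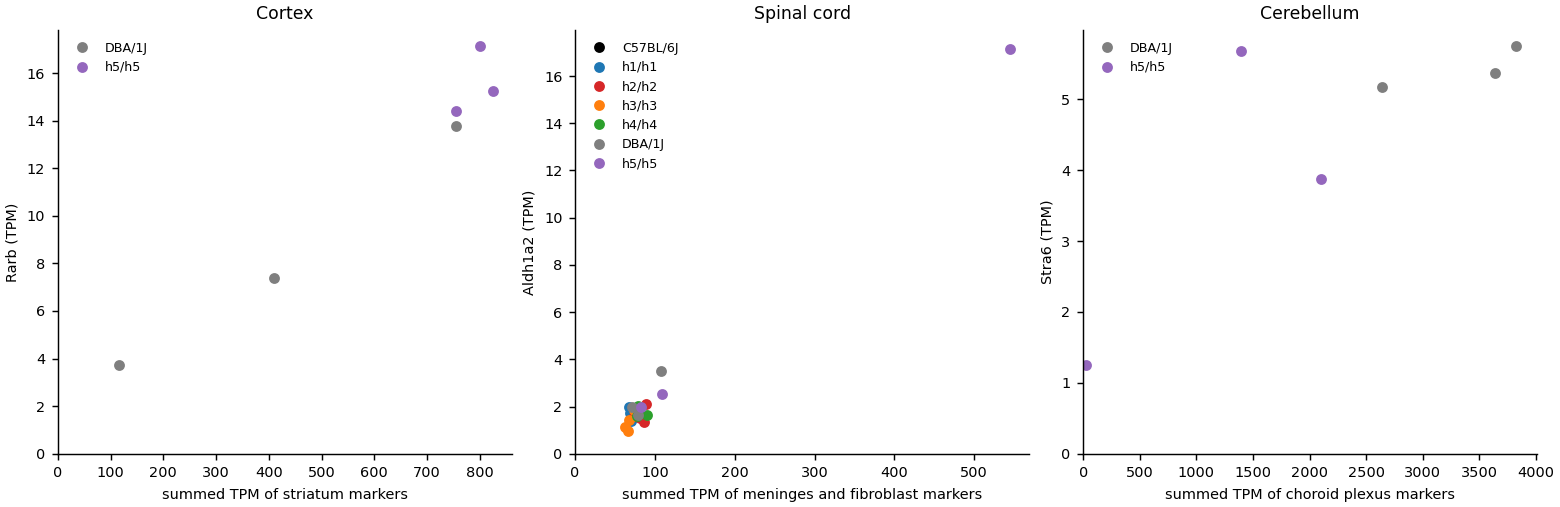
A member's TPM (y axis) against the summed TPM of a marker list (x axis), by library: Rarb and striatum in cortex, Aldh1a2 and meninges in spinal cord, Stra6 and choroid plexus in cerebellum. Rarb rises with the striatal sum across the DBA/1J cortices, 1 h5 cord stands apart at 545 and 17.1, and the h5 cerebellum with the lowest choroid plexus sum has the lowest Stra6.

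Across all libraries, deviations from the group mean showed which genes varied with a member from mouse to mouse. These are descriptions over 66 libraries that share dissections and depth. Aldh1a2 varied with the mean log2 CPM deviation of the meningeal markers with a mean of at least 1 CPM (Pearson r 0.896, Spearman rho 0.646). That r includes h5 cord replicate 3 and was not recomputed without the extreme libraries. The nearest single gene to Aldh1a2 was Slc6a13 (r 0.869, rho 0.613, r 0.678 without the 2 extreme libraries). For Rarb the nearest was Pde10a, a phosphodiesterase of striatal neurons (r 0.892, rho 0.667, 0.615 without the extremes). Stra6 was nearest to the sulfate transporter gene Slc13a4 (r 0.813, rho 0.556, 0.681 without the extremes), Aldh1a1 to Plekhb1 (r 0.850, rho 0.783, 0.784 without them) and Crabp2 to Cp, which encodes ceruloplasmin (r 0.711, rho 0.295, 0.463 without them).

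Over the 20 group means the pattern most like that of Crabp1 was Slc5a7, the choline transporter of cholinergic neurons (r 0.990, rho 0.877), followed by Slc18a3, the vesicular acetylcholine transporter (r 0.987). Aldh1a2 lay nearest to Itih2 (r 0.988) and next to Crabp2 (r 0.986, rho 0.928). Crabp2 lay nearest to Mpzl2 (r 0.991), Cyp26b1 to Tbata (r 0.986), Rara to Jmjd8 (r 0.979), Rarb to Gnal, a G protein subunit (r 0.986), Aldh1a1 to Dcp2 (r 0.977), Stra6 to the glutamate receptor gene Gria1 (r 0.957) and Aldh1a3 to Tm9sf4 (r 0.929). The group means mix 5 tissues, so such values are high for many genes.

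Of 42 other genes of the pathway (dehydrogenases, binding proteins, retinoid X receptors, coregulators), 30 to 34 were tested in each comparison. In the 13 mutant comparisons edgeR called 1, Rdh5, a retinol dehydrogenase, in h4 cord (1 of 31 tested, beside 1.75% of all genes), at 8.77 ± 0.817 against 6.19 ± 0.393 CPM (0.53, SE 0.09, adjusted p 0.00605, all 4 mutants above all 3 controls). Between the strains it called 2 higher and 4 lower of 33 in DBA/1J brain (11.2% of all genes) and 6 higher and 5 lower of 31 in cord (21.3%), with medians of the list of -0.04 and 0.02 beside 0.01 and 0.01 for all genes. Rdh13 (0.70 in brain and 0.45 in cord) and Dhrs3, a retinaldehyde reductase (0.41 and 0.69), were higher in both, and Rdh14 (-0.50 and -0.53) and Fabp5 (-0.35 and -0.51) were lower in both. Between tissues it called 27 of 33 in C57BL/6J cord against brain (10 higher and 17 lower, beside 56.9% of all genes) and 25 of 33 in DBA/1J (11 and 14, 50.8%). Among regions it called 11 of 32 in hippocampus against cortex (8 and 3, 20.6%), 20 of 34 in cerebellum against cortex (12 and 8, 58.1%) and 17 of 33 in hippocampus against cerebellum (10 and 7, 64%).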

How the data were processed

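RNA of 66 mouse libraries was measured by bulk RNA-seq. The authors trimmed reads with Trim Galore, checked them with FastQC, aligned them with STAR to GRCm38 (mm10) and deposited RSEM expected counts and TPM values per gene. The annotation version is not given in the sources used here. Both units were used as deposited. Expected counts (5.07% not whole) were rounded. Of 45706 identifiers, 41403 had a symbol, and identifiers without one took 1.52 to 12.7% of the counts.

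Totals were 32889755 to 59120536 counts per library (median 42391893), and counting error is one part of the spread between mice. Replicates are separate mice. Of 78 replicate pairs 0 were identical. Groups followed the labels. Each comparison was fitted on its own groups with edgeR 4.0.16 (filterByExpr, TMM, quasi-likelihood test, R 4.3.3), with Benjamini-Hochberg adjustment over all genes tested and a threshold of 0.05. The method was also run on counts simulated for h1 brain, h2 cord and DBA/1J cord against brain, and its rates are not given here. Members removed by the filter were compared by exact permutation tests on log2(CPM + 0.1). A test of the difference between cord and brain effects used both tissues. Alternatives were DESeq2 1.42.0, edgeR with the size factors of DESeq2, a fit to every gene without filtering, limma 3.58.1 on log2(TPM + 0.5), 1 fit per tissue, sex as covariate, a replicate block, a block by identifier series and leaving out each library. Direct contrasts between mutants, and the h5 difference between tissues without cord replicate 3, were added after seeing the data. Likeness used log2 CPM with a prior count of 2, for genes with a mean of at least 1 CPM. Python 3.11.15, pandas 2.3.3, NumPy 2.4.6 and SciPy 1.17.1 were used for tables.

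The members, the pathway list and the marker lists were chosen with earlier results of these data known. All 9 members were named. Of other genes, those called in the pathway list or within 2 Mb of the start of Aldh1a1 could be named, as could the 3 most like each member and markers that a result moved with. Values of 1 pathway gene are not reported here. Of 18 meningeal markers 17 were matched. Same-numbered brains of h1 and C57BL/6J mice, different animals of the same labelled sex, deviated together (correlations 0.131, 0.123 and 0.204). So did those of h4 and C57BL/6J (0.0968, 0.159 and 0.138). The main fits did not pair mice by number, and the replicate block was an alternative only. Tissue comparisons are within the same animals, and their main fits held no term for the animal.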

Additional observations from a re-analysis of the deposited data

Results flagged for a closer look

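In groups of 4 mice, 4 of 54 member values tested held a mouse far from the other 3 by Dixon's criterion, which chance alone gives in about 1 in 20. Aldh1a3 was at 0.603 CPM in h3 cord replicate 4, where the nearest other mouse was at 0.887. Crabp2 was at 2.82 CPM in h4 brain replicate 2 (nearest 2.07). Cyp26b1 was at 10.8 CPM in h4 brain replicate 4 (nearest 12.4). Rarb was at 7.11 CPM in h4 cord replicate 3 (nearest 8.27).

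Rara in h2 mice lay above all controls in cord (log2 fold change 0.21) and below all controls in brain (-0.24). The difference between the tissues was tested by edgeR and was not called (0.45, SE 0.14, adjusted p 0.757).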

How the results depend on the processing

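Of 2253 values of single members recomputed under an alternative, 2185 kept their direction and side of the threshold or were uncalled in both, 50 lost and 18 gained a call, and none of the 110 that changed sign was called in either fit. Mutant calls numbered 3 in the main analysis, 3 with DESeq2, 3 without the low-count filter and 1 with limma on log2 TPM, and 2 (without C57BL/6J brain replicate 1) to 5 (without DBA/1J cortex replicate 3) when a library was left out. Strain calls numbered 6, with 3 under limma and 4 to 6 when a library was left out. Tissue calls ranged from 29 to 33 when a library was left out. The cause of these differences was not tested. With a replicate block there were 2 mutant calls, 5 strain calls and 32 tissue calls, and the call lost in the mutants was Aldh1a2 in h2 brain (adjusted p 0.214), whose numbers do not pair the mice. The test of the cord and brain difference called 0 members with the animal as block and 0 in h5 without cord replicate 3, a fit chosen after seeing the data. Genes called over the 13 mutant comparisons ranged from 0 to 365 in the main analysis, 17 to 570 with DESeq2, 16 to 783 without the filter, 0 to 33 with limma and 0 to 292 with the block. A block by identifier series could be fitted only for h5, where no member was called, and gave 0 to 20 genes, so it bears on none of the 3 member calls. Crabp1 in comparisons with cerebellum and Crabp2 in comparisons of other cords with C57BL/6J cords rested on few counts and did not pass the filter.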
